A study of Mus musculus with 45 samples.

Results

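B cell genes were followed in sorted mouse T cells. The 9 genes are Ms4a1, Cd79a, Cd79b, Cd22, Pax5, Ebf1, Blk, Fcer2a and Cr2. They were chosen by name as B cell genes, with earlier results of these data known. All 9 were found by symbol among the 23420 genes of the deposited count table. Gene expression had been measured by RNA-seq in 45 libraries, in 9 groups of 5. Regulatory T cells (Tregs), CD4 T cells that depend on the factor Foxp3 and restrain immune responses, came from B16 melanomas, a transplanted mouse skin tumour, and from lymph nodes that do not drain the tumour (LN). Libraries numbered 2, 3 and 4 were read as single sorted and those numbered ds1 and ds2 as double sorted, from their names and from the numbers of each that the labels' protocols give. N Tregs, HetNrp1def Tregs (genotype label Het_Nrp1-), HetWT Tregs (genotype label Het_WT) and WT Tregs each came from tumour and from LN. The ninth group was of effector T cells from tumours, labelled WT. N samples carry the label Het_Nrp1- too and were kept apart by title, since the series' design also names homozygous Nrp1-deficient mice. The sources used here do not give the Nrp1 allele, the driver of its deletion, or the age and number of mice. Whether replicates are different mice is not in the labels either, and each p-value reflects the spread of these samples alone, which may be technical.

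A B cell senses antigen through a membrane immunoglobulin that signals through the paired chains CD79A and CD79B. EBF1 and PAX5 are the transcription factors that set up the B cell programme, and CD20 (Ms4a1), CD22, CD21/35 (Cr2) and CD23 (Fcer2a) are surface proteins of mature B cells, which fill the follicles of lymph nodes.

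The genes lie apart from each other on 7 chromosomes (mm10, GENCODE vM21). Ms4a1 is on chromosome 19 (11249675 to 11266241, minus strand), Cd79a on chromosome 7 (24897381 to 24902197, plus), Cd79b on chromosome 11 (106311341 to 106314762, minus) and Cd22 on chromosome 7 (30865402 to 30880342, minus). Pax5 is on chromosome 4 (44524757 to 44710487, minus), Ebf1 on chromosome 11 (44617317 to 45008091, plus), Blk on chromosome 14 (63372836 to 63417037, minus), Fcer2a on chromosome 8 (3681737 to 3694175, minus) and Cr2 on chromosome 1 (195136811 to 195176716, minus). All 9 are protein-coding. Exons of Cd22 and Pax5 overlap exons of genes on the opposite strand, 5730488B01Rik of the count table being one for Pax5. The strand setting of the counting is not given, so these 2 are less certain.

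Sequence before the start of transcription is in the RefSeq promoter table (GRCm38.p6, the assembly of mm10) for 6 of the 9. It is shown for 3 genes that ran close to the mean of the others across samples, in the stretch outside all annotated exons. The Cd79a stretch ends at the base before the gene (chr7:24897247-24897380, plus strand), the Fcer2a stretch likewise (chr8:3694176-3694424, minus strand). The Cd22 stretch (chr7:30879029-30879176, minus strand) lies before a RefSeq start, inside the annotated gene and outside its exons. Capitals mark letters that fit CCCNNGGG, the core that EBF factors recognise.
Cd79a: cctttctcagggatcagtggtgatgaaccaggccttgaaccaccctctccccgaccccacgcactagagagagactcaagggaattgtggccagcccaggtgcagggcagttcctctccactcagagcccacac
Fcer2a: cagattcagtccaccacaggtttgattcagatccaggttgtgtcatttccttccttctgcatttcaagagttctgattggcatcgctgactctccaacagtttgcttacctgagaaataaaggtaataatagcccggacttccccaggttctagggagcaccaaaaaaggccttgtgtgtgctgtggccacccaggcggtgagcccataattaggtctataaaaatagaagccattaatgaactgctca
Cd22: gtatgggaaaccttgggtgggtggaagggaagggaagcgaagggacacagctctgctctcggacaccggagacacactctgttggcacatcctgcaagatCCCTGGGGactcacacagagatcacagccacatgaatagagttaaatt
CCCNNGGG was searched on both strands in the 250 bases before each start. It was in 11.8% of 32851 RefSeq promoters and in 1 of the 6 genes, Cd22, where it begins 48 bases before the start. The octamer ATGCAAAT, searched the same way and not overlapping it, was in 1.60% of promoters and in 0 of the 6 genes.

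Total counts per library ran from 2945638 to 35787148. Double-sorted libraries had 2945638 to 13546915 counts and single-sorted ones 8488379 to 35787148, so 3 counts, the limit that a count of 0 allows, corresponded to 0.0838 to 1.02 CPM (counts per 1000000 counts of the library). In 4 pairs of libraries of a group the counts differed by little more than sampling noise (chi-square per degree of freedom 2.04 to 2.42, against 51.1 or more in all other pairs of a group), and the counts of each pair were added to make 1 sample, leaving 41. The HetWT tumour pair and the HetNrp1def tumour pair each joined ds1 with 4, so their sorting cannot be given and they enter no comparison of sorting. Pan-T-cell genes summed to 6407 to 7262 CPM in double-sorted LN Tregs and 6407 to 7757 CPM in single-sorted LN Tregs. Foxp3 had a median of 20.2 CPM in double-sorted LN Tregs (lowest sample 0.0850) and 3.91 CPM in single-sorted LN Tregs (lowest sample 0). Other Treg genes had closer medians, double-sorted first: Il2ra 542 and 589 CPM, and Ikzf2 1013 and 949 CPM. Those of Ctla4 were 552 and 395 CPM, of Tnfrsf18 492 and 477 CPM and of Nrp1 278 and 221 CPM. Of these 6 genes, 0 passed between the sorts in edgeR.

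The summed level of the B cell genes had a lower median in double-sorted than in single-sorted lymph node Tregs, and 2 of the 9 passed the test. The 9 genes together had 5.44 to 164.6 CPM in the 8 double-sorted LN samples (median 76.2) and 133 to 775 CPM in the 10 single-sorted LN samples (median 349.4). The ranges overlap at the upper end of the double-sorted samples. In tumour Tregs the sum was 3.39 to 45.7 CPM in 6 double-sorted samples (median 22.8) and 4.29 to 27.3 CPM in 10 single-sorted ones (median 20.2). Effector T cells had 5.91 and 21.4 CPM in the 2 double-sorted libraries and 29.4, 40.2 and 60.2 CPM in the 3 single-sorted ones. In bulk RNA the cells that these counts come from are not known, and fewer such cells and less RNA per cell cannot be told apart.

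**Figure D1:**
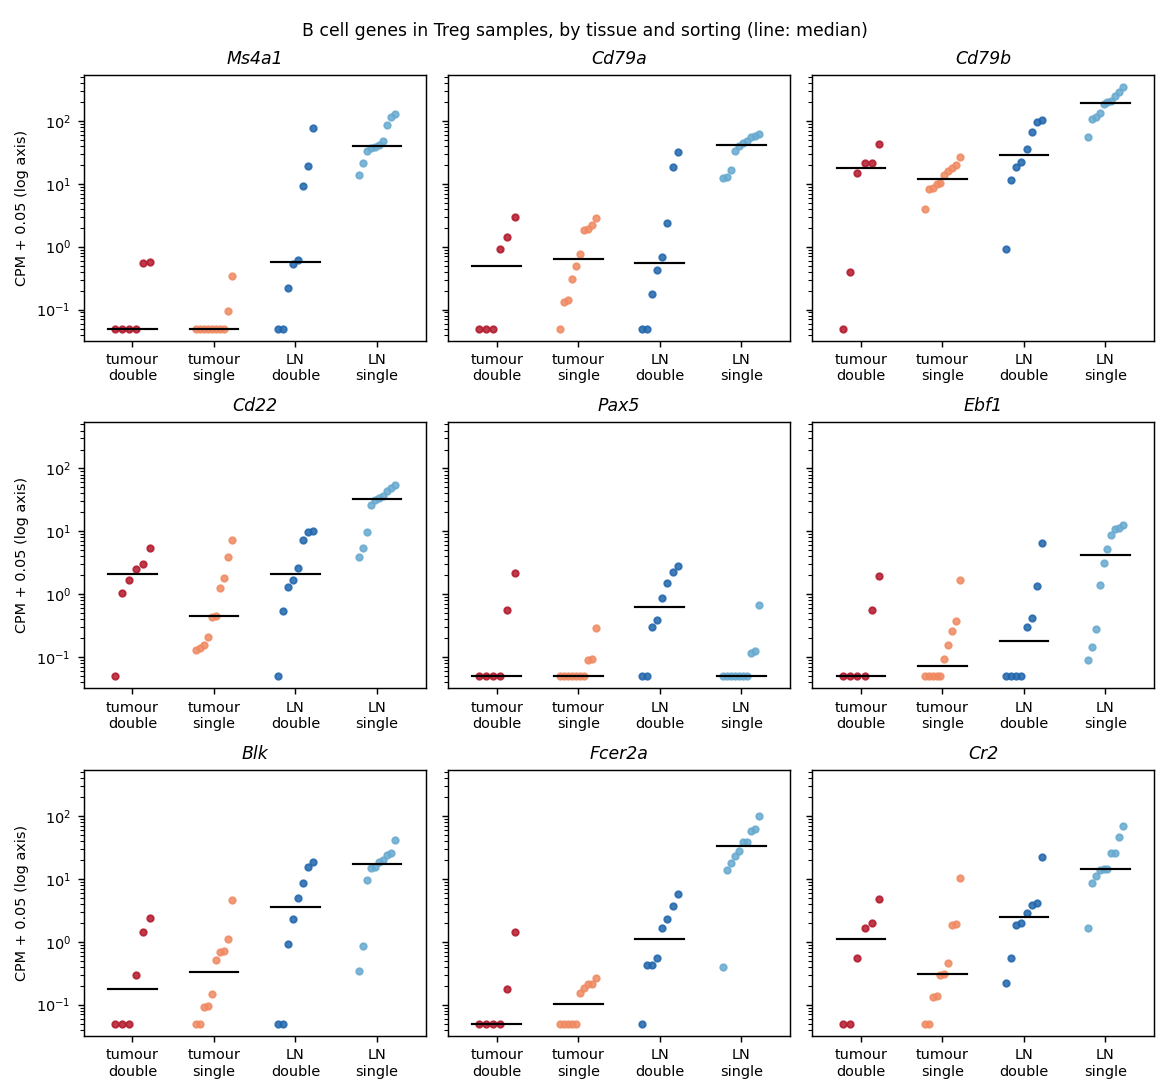
Level of each gene (CPM + 0.05, log axis) in tumour and lymph node (LN) Treg samples, double and single sorted (6, 10, 8 and 10 samples from left to right); each point is a sample, the line is the median, and the 2 pairs of mixed sorting are left out. Except for Pax5, single-sorted LN samples have the highest medians, and Cd79b is the gene with the most counts in tumours.

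The antigen receptor chains had the highest median levels per length in single-sorted LN Tregs. Per length of annotated exon, the median levels in single-sorted LN Tregs were 134.6 CPM per kb for Cd79b and 28.9 CPM per kb for Cd79a. Those of Fcer2a (10.6), Ms4a1 (6.45), Cd22 (6.45) and Blk (6.30) followed, and those of Cr2 (1.76), Ebf1 (0.426) and Pax5 (0) were the lowest, all in CPM per kb. The samples of neighbours in this order overlapped: Cd79a ran from 8.59 to 42.7 CPM per kb and Fcer2a from 0.111 to 31.8 CPM per kb. Cd79b stood at 0.865 to 103 CPM in double-sorted LN Tregs (median 29.0) and at 55.1 to 351 CPM in single-sorted LN Tregs (median 193). Cd79a stood at 0 to 32.4 CPM in double-sorted LN Tregs (median 0.508) and at 12.5 to 62.2 CPM in single-sorted LN Tregs (median 42.1). All single-sorted samples held both chains, while Cd79a had no count in 2 of the 8 double-sorted samples, and both genes overlapped between the sorts.

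Among surface proteins, Ms4a1 stood at 0 to 76.1 CPM in double-sorted LN Tregs (median 0.520) and at 13.6 to 128 CPM in single-sorted LN Tregs (median 39.9). Ms4a1 encodes CD20, a membrane protein of mature B cells and the target of B cell-depleting antibodies. Fcer2a, the low-affinity IgE receptor CD23 of follicular B cells, stood at 0 to 5.62 CPM in double-sorted LN Tregs (median 1.06) and at 0.342 to 98.3 CPM in single-sorted LN Tregs (median 32.9). One single-sorted sample, WT replicate 3 with 0.342 CPM, fell within the double-sorted range of Fcer2a, and the other 9 lay above it. Cd22, an inhibitory co-receptor that binds sialic acid, stood at 0 to 10.03 CPM in double-sorted LN Tregs (median 2.08) and at 3.82 to 54.7 CPM in single-sorted LN Tregs (median 32.5). Cr2, the complement receptor that also marks follicular dendritic cells, stood at 0.170 to 21.99 CPM in double-sorted LN Tregs (median 2.40) and at 1.59 to 69.04 CPM in single-sorted LN Tregs (median 14.3). Blk, a Src-family kinase of the antigen receptor pathway, stood at 0 to 18.2 CPM in double-sorted LN Tregs (median 3.58) and at 0.291 to 40.96 CPM in single-sorted LN Tregs (median 17.0). Cd22, Cr2 and Blk thus overlapped widely between the sorts, with higher medians in the single-sorted samples.

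The transcription factors were the lowest members per length in single-sorted LN Tregs. Ebf1 stood at 0 to 6.36 CPM in double-sorted LN Tregs (median 0.128) and at 0.0384 to 12.8 CPM in single-sorted LN Tregs (median 4.16). Pax5, which keeps B cells committed to their lineage, stood at 0 to 2.80 CPM in double-sorted LN Tregs (median 0.575) and at 0 to 0.627 CPM in single-sorted LN Tregs (median 0). It was the only member whose median was higher in double-sorted LN samples, on 41 counts over the 8 double-sorted samples and 15 counts over the 10 single-sorted samples. Over the same 10 single-sorted samples Ms4a1 had 10889 counts.

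In edgeR, which tested 18479 genes in 39 samples by group and sorting, 2 of the 9 genes fell in double-sorted against single-sorted LN Tregs, while 0.476% of all genes tested were called lower. Ms4a1 averaged 13.2 ± 26.3 CPM in double-sorted LN Tregs (SD, n = 8) and 56.1 ± 39.5 CPM in single-sorted LN Tregs (SD, n = 10), a fitted log2 fold change of -5.10 ± 1.06 (SE, edgeR adjusted p = 0.00921). Fcer2a averaged 1.79 ± 1.97 CPM in double-sorted LN Tregs and 37.8 ± 28.6 CPM in single-sorted LN Tregs, with -4.94 ± 1.07 (edgeR adjusted p = 0.0135). The other values were negative without passing an edgeR adjusted p of 0.05: -4.20 ± 1.15 for Cd79a (0.0584), -2.61 ± 0.70 for Cd79b (0.0601) and -3.17 ± 1.02 for Cd22 (0.115). Those of Ebf1 (-4.73 ± 1.56, adjusted p = 0.124), Cr2 (-2.76 ± 1.04, 0.183) and Blk (-2.14 ± 1.08, 0.325) also missed it in edgeR. WT double-sorted LN samples held no count of Ebf1, so the size of its value depends on how 0 is treated. For Pax5 a genotype without a count in each sort left the average over genotypes without a usable estimate. The median over the 9 fitted values, that of Pax5 included, was -3.17, against 0.06 over all genes tested.

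The call count depended on single libraries. Without HetWT ds1, N ds2 or WT ds1 it was 0, without HetNrp1def ds1 it was 1 and without HetWT ds2 it was 3. Without HetNrp1def ds2 it was 4, with 4.32% of all genes called lower. It was 6 without all ds2 libraries, where 25.3% of all genes were called lower, and 5 with DESeq2, where 1.77% were. At an unadjusted p of 0.05, 7 of the 9 and 15.5% of all genes were called. Sorting, replicate number and depth move together in this design, so their parts in the difference cannot be told apart.

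The double-sorted libraries also differed from each other in which gene carried the counts. In the HetNrp1def ds1 library Ms4a1 gave 613 of the 876 member counts (70.0%). In N ds1 Cd79b gave 1215 of 1455 (83.5%), with 0 counts of Cd79a and 2 of Ms4a1. WT ds1 had 44 member counts in all, 23 of them Cr2. The single-sorted libraries were more even: Cd79b was the largest member in 12 of 12, with 38.5% to 63.8% of the member counts, and Ms4a1 had 3.49% to 25.02%. Ratios still varied there, with Cd79a over Ms4a1 between 0.324 and 4.13, and Ebf1 over Ms4a1 between 0.000808 and 0.311. Of the 9 genes, a median of 4 per double-sorted and 8 per single-sorted LN sample reached 1 CPM.

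**Figure D2:**
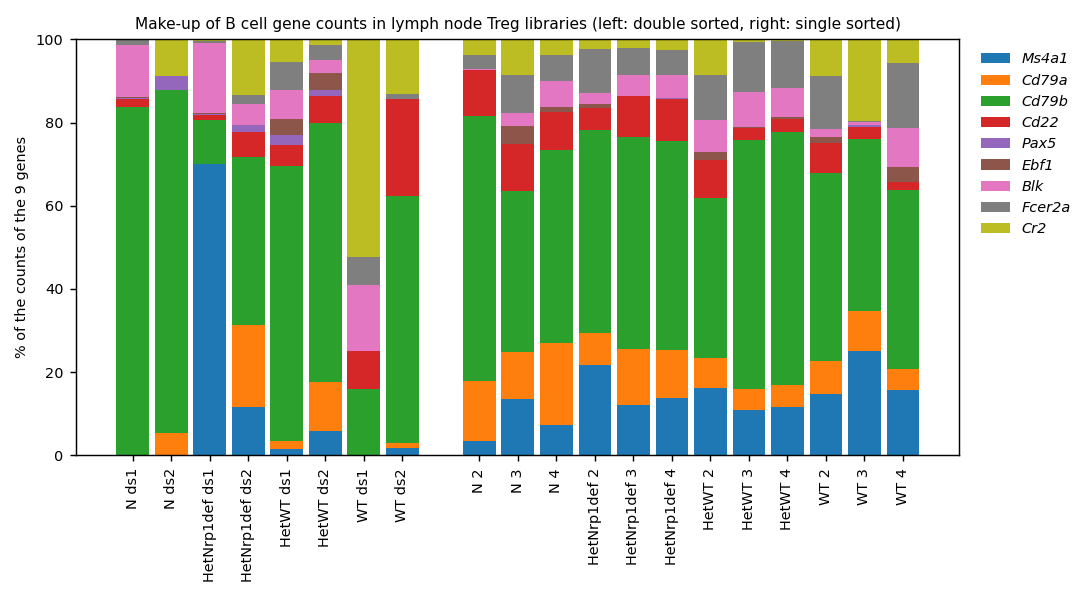
Share of each gene (% of the counts of the 9 genes, vertical axis) in every LN Treg library, double sorted on the left and single sorted on the right. Cd79b has 38.5% to 63.8% in all single-sorted libraries, while N ds1 is 83.5% Cd79b, HetNrp1def ds1 is 70.0% Ms4a1 and WT ds1 is 52.3% Cr2.

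In single-sorted samples, 8 of the 9 genes fell in tumour against LN Tregs, while edgeR called 1.32% of all genes tested lower. Ms4a1 had 4 counts in all in the 10 tumour samples (0 in 8 of them, the highest 0.297 CPM) and 10889 counts in the 10 LN samples, with no overlap. The fitted log2 fold change was -11.21 ± 1.35 (edgeR adjusted p = 2.99e-08), and since HetWT and N tumour samples held no count its size depends on how 0 is treated. Fcer2a averaged 0.0774 ± 0.0860 CPM in tumour and 37.8 ± 28.6 CPM in LN Tregs (SD, n = 10 each), with -9.45 ± 1.30 (edgeR adjusted p = 8.17e-07). Its tumour values, at most 0.212 CPM, lay below all LN values. HetNrp1def tumour samples held no count of Fcer2a or Ebf1, so the sizes of their changes depend on how 0 is treated too: with limma on log2(CPM + 0.5) they were -5.63 for Fcer2a and -2.39 for Ebf1, and -6.58 for Ms4a1.

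The receptor chains and the remaining surface genes followed. Cd79a averaged 1.03 ± 1.04 CPM in tumour and 38.3 ± 18.8 CPM in LN Tregs, with -5.17 ± 1.13 (edgeR adjusted p = 0.00242). Cd79b averaged 13.5 ± 6.67 CPM in tumour and 189 ± 90.1 CPM in LN Tregs, with -3.92 ± 0.70 (edgeR adjusted p = 0.000302), and neither chain overlapped between the tissues. Per length, Cd79b had the highest median of the 9 in single-sorted tumour Tregs, 8.36 CPM per kb, followed by Cd79a with 0.401 CPM per kb. Cd22 (-4.59 ± 1.04, 0.00358), Cr2 (-5.21 ± 1.13, 0.00214), Blk (-5.32 ± 1.202, 0.00354) and Ebf1 (-5.88 ± 1.49, 0.0122, in edgeR) fell too, each with some tumour samples within the LN range. Pax5 had 5 counts in tumour and 15 counts in LN samples and did not pass. Of leaving out 1 sample at a time, HetNrp1def tumour replicate 3 took the count of genes called to 5, and in the other 19 it was 6 to 8.

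In double-sorted samples, 0 of the 9 genes passed in tumour against LN Tregs by edgeR, while 0.606% of all genes tested were called lower. At an unadjusted p of 0.05, 3 of the 9 and 9.07% of all genes were called. DESeq2 called 2, both lower, and 4.38% of all genes lower. Ms4a1 averaged 0.171 ± 0.265 CPM in double-sorted tumour Tregs (SD, n = 6) and 13.2 ± 26.3 CPM in double-sorted LN Tregs (n = 8), with -5.07 ± 1.79 (edgeR adjusted p = 0.199). Cd79a averaged 0.867 ± 1.17 CPM in tumour and 6.77 ± 12.1 CPM in LN Tregs, with -2.93 ± 1.70 (edgeR adjusted p = 0.697). Cd79b averaged 16.7 ± 16.0 CPM in tumour and 44.4 ± 39.5 CPM in LN Tregs, with -1.21 ± 0.79 (edgeR adjusted p = 0.780). All 9 genes overlapped between the tissues. How often other genes overlap was not counted, here or in the single-sorted samples. In double-sorted tumour Tregs, ds2 was the only HetNrp1def and HetWT library, since their ds1 libraries were in pairs of mixed sorting. The HetNrp1def ds2 library held no count of Ms4a1 or Cd79a and the HetWT ds2 library none of Ms4a1. The sizes of these changes thus depend on how 0 is treated. The ds1 libraries left out held 2 counts (HetNrp1def) and 1 count (HetWT) of Ms4a1, and 1 count of Cd79a in HetNrp1def. Without the ds2 libraries only WT and N Tregs remained in this comparison, with the ds1 library of each tissue. The values then turned to 3.44 for Ms4a1 and 3.24 for Cd79a. The median of the 9 fitted changes was -2.91 in double-sorted and -5.21 in single-sorted samples, against -0.40 and -0.03 over all genes. These medians include Pax5 and the values whose size depends on how 0 is treated.

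**Figure D3:**
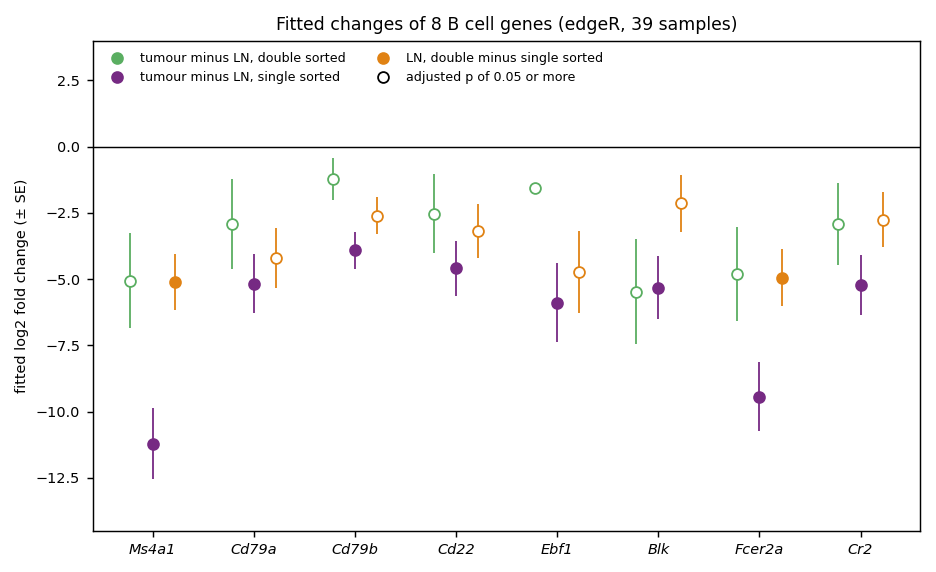
Fitted log2 fold changes with their SE (vertical axis) of 8 genes for tumour minus LN Tregs in double-sorted and in single-sorted samples, and for double minus single sorting in LN Tregs; filled points passed an edgeR adjusted p of 0.05. All 8 are filled for the single-sorted tissue comparison, none for the double-sorted one, and the double-sorted Ebf1 value has no usable SE. Sizes depend on how 0 is treated where a genotype held no count, which in double-sorted tumours is the case for all but Cd79b. For HetNrp1def and HetWT, ds2 is the only double-sorted tumour library.

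The difference between the sorts in the tissue change was tested itself, and 0 of the 9 genes passed in edgeR (0% of all genes tested). At an unadjusted p of 0.05, 1 of the 9 was called, and 3.24% of all genes. Cd79b, the only member with a count in every genotype, tissue and sort, had a difference of 2.71 ± 0.97 on the log2 scale (edgeR adjusted p = 1). For the other 8 a genotype held no count, so the size of this average and its SE depend on how 0 is treated. The edgeR values were 6.15 for Ms4a1 and 4.65 for Fcer2a, neither passing. DESeq2 called 2 genes, Ms4a1 (7.23, DESeq2 adjusted p = 0.0331) and Fcer2a (5.74, DESeq2 adjusted p = 0.0241), both with a smaller tissue change in double-sorted samples, where 0.103% of all genes were called in that direction. A limma fit of log2(CPM + 0.5), added after seeing the data, put them at 4.42 (adjusted p = 0.169) and 4.17 (0.428). In tumour Tregs, 0 of the 9 genes passed between double and single sorting (0.384% of all genes called in either direction by edgeR). At an unadjusted p of 0.05, 0 were called, and DESeq2 called 0.

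Each replicate number is given by the labels to 1 library of every group. The summed CPM of the 9 genes did not overlap between tumour and LN libraries in numbers 2, 3 and 4. Number 2 had 16.5 to 27.3 CPM in tumour and 391 to 775 CPM in LN libraries, number 3 had 4.29 to 26.9 CPM in tumour and 133 to 372 CPM in LN libraries, and number 4 had 12.4 to 43.7 CPM in tumour and 248 to 370.4 CPM in LN libraries. In ds1 the tumour libraries had 3.39 to 45.7 CPM and the LN libraries 5.44 to 124 CPM, and in ds2 the tumour libraries had 21.6 to 45.7 CPM and the LN libraries 30.9 to 165 CPM, so both overlapped. Mean differences of log2(summed CPM + 0.5), tumour minus LN, were -4.67, -4.08 and -3.72 in numbers 2, 3 and 4, and -1.21 and -1.37 in ds1 and ds2. Numbers 4 and ds1 include the near-identical HetWT and HetNrp1def tumour libraries whose sorting is not known, and numbers 3 and 4 both include the near-identical HetWT and HetNrp1def LN libraries. In N and WT Tregs alone, ds1 had 3.39 and 13.4 CPM in tumour and 124 and 5.44 CPM in LN libraries, a mean difference of -1.88. In the same genotypes number 4 had 12.4 and 13.2 CPM in tumour and 289.6 and 248 CPM in LN libraries, a mean difference of -4.34.

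**Figure D4:**
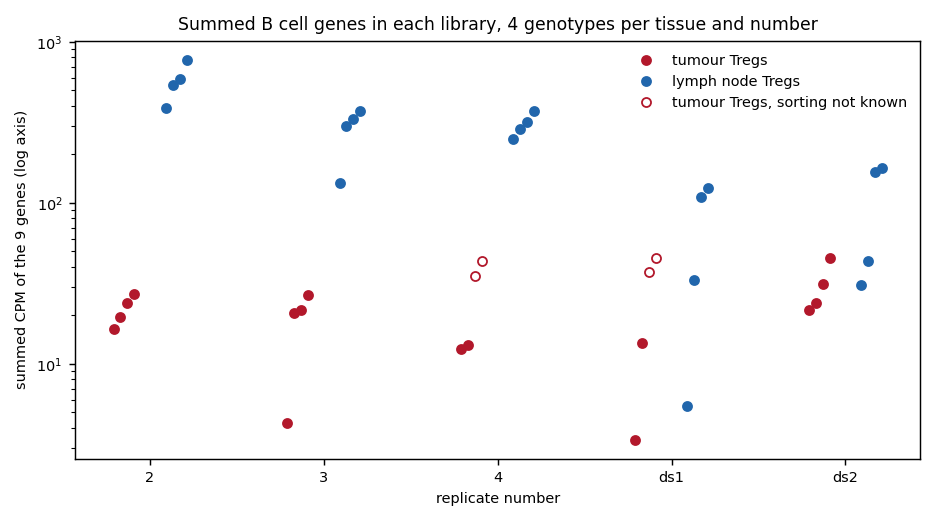
Summed CPM of the 9 genes (log axis) in each tumour and LN Treg library, by replicate number; each point is 1 of the 4 genotypes of a tissue, and open points are the HetWT and HetNrp1def tumour libraries whose sorting is not known. Tumour and LN libraries are apart in numbers 2, 3 and 4 and overlap in ds1 and ds2.

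With both sorts pooled by genotype, edgeR tested 14668 genes in all 41 samples. For Ms4a1, WT tumour Tregs had 0.0437, 0 and 0 CPM in the single-sorted and 0.523 and 0 CPM in the double-sorted libraries, against 113.7, 33.3 and 38.6 CPM and 0 and 0.555 CPM in WT LN Tregs. Ms4a1 alone of the 9 passed there, lower in tumour (-8.58 ± 2.11, edgeR adjusted p = 0.0314, 0.361% of genes called lower). Its double-sorted WT LN values, 0 and 0.555 CPM, lay within the tumour range or just above it, and in double-sorted samples alone the fitted value was 0.10 (adjusted p = 1). In N Tregs Fcer2a alone passed (-7.36 ± 1.90, edgeR adjusted p = 0.0420, 0.225% of genes called lower), on 3 counts in the tumour group and 1061 counts in the LN group. The ratio of summed counts per total, tumour over LN, was 0.00302 (95% exact interval 0.000622 to 0.00886, counting error only). In HetNrp1def Tregs Ms4a1 alone passed (-9.53 ± 2.39, edgeR adjusted p = 0.0448, 0.307% of genes called lower), with 0.105 ± 0.140 CPM in tumour and 67.8 ± 46.6 CPM in LN samples (SD, n = 4 each) and no overlap. At an unadjusted p of 0.05, 7, 7 and 8 of the 9 were called in WT, N and HetNrp1def. Over all genes the shares were 10.4%, 9.5% and 11.3%. In HetWT Tregs 0 of the 9 passed (0.075% of genes called lower), with 7 at an unadjusted p of 0.05, against 8.12% of all genes, and 2 by DESeq2, against 1.17% called lower. These calls were lost without most single samples, in 6 of 10 for WT, 8 of 10 for N and 7 of 8 for HetNrp1def.

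Summed over the 9 genes, N LN samples ran from 43.7 to 390.6 CPM, HetNrp1def LN samples from 109 to 589 CPM, HetWT LN samples from 33.0 to 541 CPM and WT LN samples from 5.44 to 775 CPM, and all 4 overlapped. N tumour samples ran from 3.39 to 27.3 CPM, HetNrp1def tumour samples from 4.29 to 44.5 CPM, HetWT tumour samples from 23.7 to 45.7 CPM and WT tumour samples from 13.2 to 24.0 CPM. Effector T cells ran from 5.91 to 60.2 CPM. In N against WT Tregs 0 of the 9 passed in LN and 0 in tumour, and in HetNrp1def against HetWT 0 passed in LN and 0 in tumour. In each of these 4 comparisons edgeR called 0% of the genes tested and DESeq2 called 0 of the 9. At an unadjusted p of 0.05, 0, 0, 0 and 1 of the 9 were called in the order given. Over all genes, those counts were 616, 376, 952 and 291, and DESeq2 called 19, 3, 315 and 8.

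Between WT tumour Tregs and tumour effector T cells, 0 of the 9 genes passed in edgeR (1.61% of genes called lower), 3 had an unadjusted p under 0.05, as did 17.5% of all genes, and DESeq2 called 0. Effector T cells held single high libraries: Ms4a1 had 9.07 CPM in replicate 4 and at most 0.0738 CPM in the others, and Cd79a 10.7 CPM in replicate 2 and at most 0.307 CPM in the others. Blk had 14.8 CPM in replicate 3. In single-sorted samples alone, 2 of the 8 members tested were lower in WT tumour Tregs than in effector T cells, and 2.73% of all genes tested.

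Other B cell genes were read from a list of 48, of which 43 are in the count table and were tested. This list too was chosen with earlier results of these data known. It holds genes that T cells and other immune cells also use, such as Btla and Lyn, and Ighm, Ighd, Igkc, Iglc1 and Iglc2 were not analysed here. Over all genes tested, 0.476% were called lower in double-sorted against single-sorted LN Tregs, with a median of 0.06. Of the 43, 4 fell there and 0 rose, with a median of -2.08. They included Hhex (-6.16 ± 1.45, edgeR adjusted p = 0.0226), a homeobox factor, Fcrla (-6.09 ± 1.44, 0.0245), an Fc receptor-like protein of B cells, and Pou2af1 (-4.79 ± 1.10, 0.0210), the B cell coactivator of octamer factors. Among the most abundant, the antigen presentation genes Cd74 (-2.08 ± 0.58, edgeR adjusted p = 0.0939) and H2-Aa (-2.61 ± 0.86, 0.1503) did not pass. Btla (-0.59), Cd83 (0.81) and Cd37 (-0.22) did not pass either. In tumour against LN Tregs 11 of the 43 fell in single-sorted samples (median -2.19), against 1.32% of all genes (median -0.03). In double-sorted samples 1 fell (median -1.94), against 0.606% of all genes (median -0.40).

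Genes listed for other cell types moved beside them in LN Tregs, double against single sorted, where 0.476% of all genes were called lower. The plasma cell gene Igj, the joining chain of IgM and IgA, fell (-9.11 ± 2.12, edgeR adjusted p = 0.0449), 1 of 6 plasma cell genes tested. Igj ran from 0 to 0.647 CPM in double-sorted LN Tregs (median 0) and from 0 to 287 CPM in single-sorted LN Tregs (median 4.95). Lyz2 (lysozyme, -6.44 ± 1.02) and Cd68 (-5.18 ± 1.31), 2 of 11 macrophage and monocyte genes, fell as well, and so did 1 of 2 CD8 T cell genes, Cd8a (-4.43 ± 0.95), and 2 of 5 NK cell genes, Klrk1 (-5.31 ± 0.99) and Nkg7 (-1.32 ± 0.26). Summed CPM of the macrophage and monocyte list was 4.76 to 122 in double-sorted and 36.4 to 147 in single-sorted LN Tregs. The CD8 list summed to 0.993 to 92.4 CPM in double-sorted and 32.0 to 229 CPM in single-sorted LN Tregs, and the NK list to 32.1 to 476.5 CPM in double-sorted and 152 to 372 CPM in single-sorted LN Tregs. None of the pan-T-cell (10), Treg (6), dendritic cell (9), neutrophil (2), melanoma (8), follicular dendritic and stromal cell (8) or erythroid (1) genes tested passed. The part of these other cells in the B cell gene values was not tested. In single-sorted tumour against LN Tregs 7 of 8 melanoma genes rose, with 8.71 to 3765 CPM summed in tumour and 4.24 to 32.2 CPM in LN samples. In that comparison edgeR called 627 of the 18479 genes tested, in either direction. There, 3 of 11 macrophage and monocyte genes (Cd14, C1qb and Emr1), 2 of 5 NK cell, 2 of 6 Treg, 1 of 10 pan-T-cell, 1 of 9 dendritic cell and 1 of 8 follicular dendritic and stromal cell genes rose as well, and 1 of 6 plasma cell genes, Mzb1, fell. The macrophage and monocyte list summed to 55.9 to 199.8 CPM in single-sorted tumour and 36.4 to 147 CPM in single-sorted LN Tregs, and the NK list to 1265 to 2482 CPM in single-sorted tumour and 152 to 372 CPM in single-sorted LN Tregs. Most of the NK sum was Nkg7, with a median of 1757 CPM in single-sorted tumour Tregs. The medians of the other NK genes there ran from 0.233 CPM (Ncr1) to 67.6 CPM (Klrk1), so the sum need not stand for NK cells. The part of these lists in the B cell gene values was not tested.

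Over the 41 samples the genes whose log2(CPM + 0.5) ran close to the mean of the 9 included Faim3 (Pearson r = 0.886), which encodes the IgM Fc receptor, and Pxdc1 (0.814). Gm15987 (0.796), Slc22a2 (0.782), Cd209b (0.757), Dok3 (0.756), Srpk3 (0.746), Chst3 (0.743) and Syk (0.738) followed. Of the 9, each against the mean of the other 8, Ms4a1 (0.892) and Fcer2a (0.888) were the closest and Pax5 (0.0384) the farthest. The samples share depth, replicate number and sorting, so these are descriptions only.

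The authors' deposited log2 table holds 7 of the 9 genes, without Pax5 and Ebf1. In it every gene has the same mean in each replicate number (the means lie at most 3.78e-13 apart), so an average difference between sorts is removed from it by construction. Its Ms4a1 log2 values were -1.45 to 1.82 in double-sorted tumour and -2.41 to 6.94 in double-sorted LN libraries, and -4.52 to -1.65 in single-sorted tumour and 2.36 to 6.16 in single-sorted LN libraries. On these values limma called 4 of the 7 genes for a smaller tissue difference in double-sorted samples, and 0 for double against single sorting in LN Tregs. Of all genes in that table, 0.305% were called for the first in the same direction.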

How the data were processed

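Counts per gene were deposited by the authors as 1 table. STAR, featureCounts, limma and the build mm10 are named in the submitters' processing notes, per the labels; the sources used here do not give versions, annotation or strand setting. Per the labels' protocols, libraries were made from small sorted samples with the SMARTer low-input kit and Nextera XT and sequenced on an Illumina NextSeq. The second table, of log2 values for 10832 genes, was also deposited by the authors.

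CPM was the count divided by the library's total count and scaled to 1000000. Libraries whose counts differed by a chi-square per degree of freedom under 5 were summed. Genes were filtered with filterByExpr and tested with edgeR 4.0.16 (quasi-likelihood, TMM, R 4.3.3) over 41 samples by group (32 residual degrees of freedom) and 39 samples by group and sorting (21), with sorting and tissue averaged over genotypes, with Benjamini-Hochberg adjustment over all genes tested and a limit of 0.05. The SE printed with a fitted edgeR value is its absolute log2 fold change divided by the square root of its F statistic. Where a genotype held no count, this SE depends on how 0 is treated, as the value does. The scripts were tested on simulated data. Alternatives used DESeq2 1.42.0 and limma 3.58.1. Replicate numbers paired HetNrp1def with HetWT LN samples by correlated deviations (lowest r 0.157 over 4 pairs) and met the rule in no other comparison. All 9 members are named, with the 4 other B cell genes called by sorting, the 6 of highest mean CPM and the 10 genes most like the members. Some genes that this rule names are not reported here. Members and lists were chosen with earlier results of these data known.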

Additional observations from a re-analysis of the deposited data

Results flagged for a closer look

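In 30 of the 81 gene-by-group sets of samples, 22 in tumour and 8 in LN groups, the highest sample stood far from the others of its group by Dixon's test. The limits used give about 1 in 20 groups by chance only where values follow a normal distribution. CPM values need not do so, groups mix single- and double-sorted samples, and groups of mostly 0 meet the test with few counts. The 30 therefore cannot be set against that rate. In tumour groups several of the high samples were the WT ds1 library, with 0.523 CPM of Ms4a1, 2.09 of Pax5, 1.92 of Ebf1, 1.39 of Fcer2a and 1.92 of Cr2. N tumour Tregs had 0.502 CPM of Ms4a1 and 0.502 of Pax5 in ds1, 7.23 of Cd22 in replicate 3 and 2.30 of Blk in ds2. HetNrp1def tumour Tregs had 2.18 CPM of Cd79a in replicate 2 and 0.0404 of Pax5 in replicate 3, with 0.0411 of Ebf1 and 0.740 of Fcer2a in the summed pair of ds1 and 4. HetWT tumour Tregs had 0.0440 CPM of Ms4a1 in the summed pair of ds1 and 4, 3.85 of Cd22 in replicate 3, and 4.50 of Blk and 10.2 of Cr2 in replicate 2.

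Tumour effector T cells had 9.07 CPM of Ms4a1 in replicate 4, 10.7 of Cd79a in replicate 2, 14.8 of Blk in replicate 3, 0.295 of Pax5 in ds1 and 21.4 of Cr2 in ds2. In LN groups, WT replicate 2 stood high for Cd79a (62.2 CPM) and Cd22 (54.7 CPM), and WT replicate 3 for Pax5 (0.627 CPM). Pax5 was also high in HetNrp1def ds2 (2.80 CPM) and N ds2 (1.48 CPM). Ebf1 was high in HetNrp1def replicate 2 (5.21 CPM) and N replicate 3 (12.8 CPM), and Cr2 in HetWT replicate 2 (46.5 CPM). The causes were not tested.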

How the results depend on the processing

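Values are members called, with the cause of each change not tested. Where no share of all genes stands beside a count, the count alone does not set the members apart from other genes. For tumour against LN Tregs, DESeq2 called 5 in WT, 4 in N, 4 in HetNrp1def and 2 in HetWT, and all 45 libraries as deposited gave 2, 2, 3 and 2. Over all genes, in either direction, DESeq2 called 3.46%, 2.69%, 5.74% and 1.90% in that order. These were 507, 395, 842 and 279 genes, against 128, 116, 96 and 35 by edgeR. Settings thus differ in how many genes they call at all. Single-sorted samples alone gave 4, 3, 2 and 2 in that order, and 2 for WT tumour Tregs against effector T cells; double-sorted samples alone gave 0 in WT, N and HetNrp1def. Without a filter on low counts the count was 0 in WT and 0 in HetNrp1def. RLE size factors gave 2 in HetNrp1def, limma on log2(CPM + 0.5), added after seeing the data, gave 2 there, and limma on the authors' deposited log2 values gave 0 in WT and 2 in N. With the replicate block the counts were 1 in WT, 2 in N, 3 in HetNrp1def and 2 in HetWT. It changed no other count where it was fitted. Double against single sorting was not refitted with the block, because sorting follows replicate number.

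For double against single sorting in LN Tregs, DESeq2 gave 5, all 45 libraries 4, no filter 4, 6 cells without genotype 1, the authors' log2 values 0, limma on log2(CPM + 0.5) 6 (5 lower, 1 higher), no ds1 libraries 4 and no ds2 libraries 6. In tumour Tregs the count was 2 without ds2 (1 higher, 1 lower). For tissue in double-sorted samples DESeq2 gave 2, all 45 libraries 1, 6 cells 1 and no ds2 libraries 1. For the difference between sorts DESeq2 gave 2, the authors' log2 values 4 and no ds2 libraries 2. Over all genes, in either direction, DESeq2 called 5.45% for sorting in LN and 2.65% for sorting in tumour. It called 6.63% for tissue in double-sorted samples and 0.714% for the difference between sorts. Without ds2, comparisons with double-sorted tumour Tregs held WT and N alone, with ds1 the only double-sorted library of each group. The double-sorted tissue values then turned to 0.14 for Cd22, 3.24 for Cd79a, 0.00648 for Cr2, 4.08 for Ebf1 and 3.44 for Ms4a1. The Cd79b difference between sorts turned to -4.36. The double-sorted tissue value of Ebf1 ran from -3.17 to 0.76 without 1 sample, the highest without HetWT tumour ds2, and Ms4a1 in WT to 0.10 in double-sorted samples alone.

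Leaving out 1 sample at a time (75 refits) gave, for tissue, 0 to 2 (WT), 0 to 1 (N) and 0 to 1 (HetNrp1def), 0 to 1 for WT tumour Tregs against effector T cells, 0 to 4 for sorting in LN, 0 to 1 for tissue in double-sorted and 5 to 8 in single-sorted samples, and 0 elsewhere. Over 30 gene values and 867 alternatives, 777 kept direction and side of the threshold. Double-sorted libraries were shallower, and 3 counts there were 0.313 to 0.842 CPM in tumour Tregs against 0.121 to 0.318 CPM in single-sorted ones, so low levels were less detectable.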
